A study of Mus musculus with 6 samples.

Results

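The distal sites described here were open chromatin regions called in Pax6-HIGH cells, the mouse insulinoma line β-TC3, and in neither of the other cell lines of the study. The ATAC-seq peaks of all 3 cell lines on chromosomes 1 to 19 were merged into 34742 union intervals wherever peaks overlapped by at least 1 bp. The members were selected on these calls: an interval was kept when it held Pax6-HIGH peaks only and had no start site of a protein-coding transcript (mm9) within 1 kb. This left 14679 members, which is 42.3% of all union intervals. Each member held a single Pax6-HIGH peak, and together they took up 54.0% of the 27172 peaks called in that line on these chromosomes. The absence of a peak in the other lines is thus what chose the members and is not a result.

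Pax6-HIGH cells (β-TC3) are pancreatic beta-cell tumor cells and Pax6-ON cells (MV+) were derived from lens epithelia, while the line RAG, of renal adenocarcinoma origin, stands for Pax6-OFF. The labels name no agent for any line, and all were grown in the same serum-supplemented medium. The libraries of each line were made in duplicate, but both replicates were pooled into 1 peak call per line, so no value below has a replicate error and a difference between lines is a difference between single pooled calls. The detergent used to release nuclei was stronger for Pax6-ON cells than for the other lines, which cannot be told apart from the line itself. The calls rested on 100254099 fragments for Pax6-HIGH, 130955836 for Pax6-ON and 102223606 for Pax6-OFF, and the Pax6-HIGH table was the largest, with 28024 peaks against 9821 and 14022. With each line limited to its 9821 peaks of smallest q-value, the rule gave 3158 intervals.

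ATAC-seq reads accessibility from where a transposase, Tn5, can cut and tag DNA. Away from promoters, such sites are often enhancers or insulators, short regions where sequence-specific factors displace nucleosomes. In beta cells, these factors include the homeodomain proteins Pdx1, Nkx2-2, Nkx6-1, Isl1 and Pax6, the forkhead protein Foxa2, the basic helix-loop-helix protein Neurod1, which binds E-boxes, the basic leucine zipper proteins of the MAF family, and the RFX family. AP-1, another leucine zipper dimer, binds distal sites in many epithelial and mesenchymal cells, and CTCF binds insulators and anchors chromatin loops.

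The members whose sequences are shown here were the strongest one nearest to each of several islet transcription factor genes, and the strongest of all, which lay in an intron of Uggt2. Each run is the 201 bases centred on the peak summit, read 5′ to 3′ on the plus strand of mm9. Capitals mark matches on either strand to any of the 13 motifs searched. The member nearest to Pax6 (chr2:105416277-105416477) held a CAGCTG E-box and a MAF site, and the one nearest to Foxa2 (chr2:147818867-147819067) held a NEUROD-type E-box. Those nearest to Nkx6-1 (chr5:101813339-101813539) and Isl1 (chr13:117087662-117087862), and the Uggt2 member (chr14:119406762-119406962), held none of the motifs in this window.
Pax6: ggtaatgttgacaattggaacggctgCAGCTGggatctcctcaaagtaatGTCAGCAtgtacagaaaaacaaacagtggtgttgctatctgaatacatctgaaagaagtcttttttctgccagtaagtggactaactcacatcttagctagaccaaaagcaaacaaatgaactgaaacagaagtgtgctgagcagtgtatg
Foxa2: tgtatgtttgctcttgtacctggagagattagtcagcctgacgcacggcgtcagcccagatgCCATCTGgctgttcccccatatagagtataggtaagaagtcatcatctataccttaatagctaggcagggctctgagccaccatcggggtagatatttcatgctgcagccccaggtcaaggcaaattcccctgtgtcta
Nkx6-1: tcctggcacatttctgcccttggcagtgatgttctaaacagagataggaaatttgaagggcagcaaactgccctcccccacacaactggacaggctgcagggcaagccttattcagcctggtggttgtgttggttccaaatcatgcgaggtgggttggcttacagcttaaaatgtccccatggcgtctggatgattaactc
Isl1: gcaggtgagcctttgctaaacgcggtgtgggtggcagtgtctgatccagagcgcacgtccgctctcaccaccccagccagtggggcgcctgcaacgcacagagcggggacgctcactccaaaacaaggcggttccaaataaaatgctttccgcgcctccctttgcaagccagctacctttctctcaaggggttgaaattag
Uggt2: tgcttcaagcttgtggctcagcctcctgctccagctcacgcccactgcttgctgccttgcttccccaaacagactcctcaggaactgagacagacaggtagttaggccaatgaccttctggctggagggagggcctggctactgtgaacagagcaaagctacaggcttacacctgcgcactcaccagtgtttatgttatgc

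Of the other genes treated the same way, the strongest member nearest to Insm1 (chr2:146132825-146133025) held a CAGCTG E-box. Those nearest to Neurod1 (chr2:79339523-79339723) and Nkx2-2 (chr2:147073909-147074109) held no match. To show what a motif-rich member looks like, the members that held a forkhead motif, a NEUROD-type E-box and a MAF site together were listed, a choice made after their values were seen. There were 11 of them, or 0.0749% of all members. The 3 with the highest fold enrichment were nearest to Agk (chr6:40297523-40297723), Fam46c (chr3:100244017-100244217) and Ets2 (chr16:95985001-95985201). In the Fam46c sequence the E-box and the forkhead match share 1 base.
Agk: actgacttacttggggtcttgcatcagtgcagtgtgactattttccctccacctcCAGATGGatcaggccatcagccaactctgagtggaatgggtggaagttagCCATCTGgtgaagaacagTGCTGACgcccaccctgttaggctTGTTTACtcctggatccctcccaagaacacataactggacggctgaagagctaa
Fam46c: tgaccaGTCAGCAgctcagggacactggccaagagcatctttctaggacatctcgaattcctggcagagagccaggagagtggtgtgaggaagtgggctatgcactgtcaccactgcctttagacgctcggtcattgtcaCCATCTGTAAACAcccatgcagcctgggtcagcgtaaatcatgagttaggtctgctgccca
Ets2: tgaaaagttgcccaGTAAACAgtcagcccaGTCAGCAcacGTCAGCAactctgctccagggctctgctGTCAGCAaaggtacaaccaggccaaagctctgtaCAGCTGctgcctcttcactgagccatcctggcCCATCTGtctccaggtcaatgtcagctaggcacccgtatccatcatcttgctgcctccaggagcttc

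The members were short and of moderate strength. Their median length was 430 bp, with the middle of the distribution between 308 and 621 bp and extremes of 228 and 7530 bp. The median pileup, the number of fragments over the summit, was 45 fragments, close to the lowest value called in this line, 25 fragments. The fold enrichment, which relates that pileup to the background expected nearby, had a median of 3.28, with quartiles of 2.58 and 4.38 and a highest value of 10.1. Distal sites that Pax6-HIGH cells shared with another line, of which there were 2988, were stronger in the Pax6-HIGH call, with a median fold enrichment of 3.79. Their median length was 716 bp, but this is the width of the merged peaks of all lines. It cannot be set against the members, which hold a single peak each. Distal sites of Pax6-ON cells only (2865) had a median fold enrichment of 3.62, and those of Pax6-OFF cells only (2898) had 3.04. A fold enrichment of 5 or more was reached by 16.7% of the members (95% Wilson interval 16.1 to 17.3), against 28.2% of the shared sites, 22.5% of the Pax6-ON sites and 6.73% of the Pax6-OFF sites. A fold enrichment of 8 or more was reached by 0.511% of the members (0.408 to 0.640), against 3.49% of the Pax6-ON sites and 1.00% of the Pax6-OFF sites (0.698 to 1.43), whose highest values were 27.5 and 29.6. A fold enrichment of 12 or more was still reached by 0.314% of the Pax6-ON and 0.552% of the Pax6-OFF sites. The highest pileups of these classes were 26039 and 106590 fragments, against 871 in the members, so their upper ends included sites of extreme signal. The members were thus the most numerous class, between the other lines in median strength and below both at the upper end, where such sites were counted. Wilson intervals given here and below cover the counting of sites only, and sites of 1 pooled call are not replicates of a condition.

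**Figure D1:**
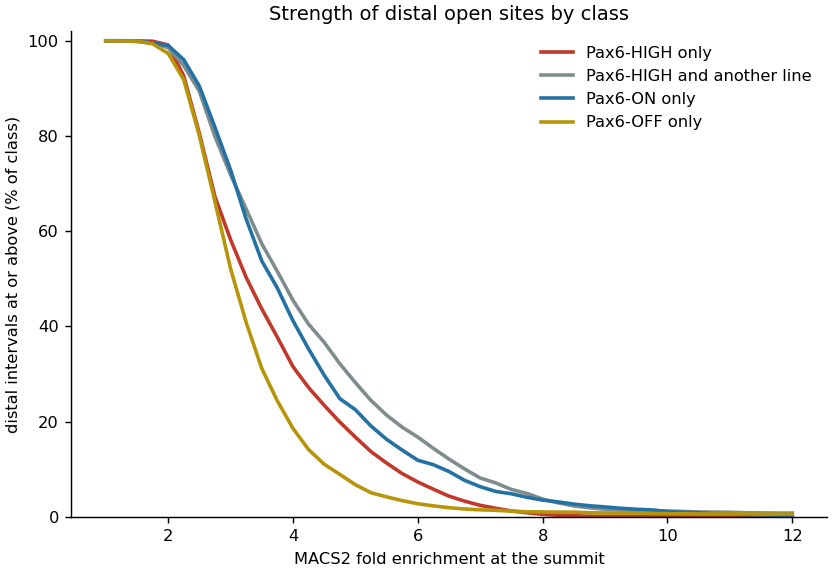
The plot shows, for each class of distal interval, the percent of intervals (vertical axis) whose MACS2 fold enrichment at the summit is at or above the value on the horizontal axis. At 5 or above lie 16.7% of the members (Pax6-HIGH only, red), between the Pax6-ON only (22.5%) and Pax6-OFF only (6.73%) sites, but at 8 or above the members are the lowest of these classes, with 0.511%.

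The members spanned a wide range of distances from promoters. The median distance to the nearest coding start site was 48964 bp, and 49.5% of the members (48.7 to 50.3) were more than 50 kb away, or 47.5% without chromosome 6. A distance over 100 kb was found for 31.5% and over 500 kb for 5.09%, while 15.7% lay within 10 kb. The shared distal sites were nearer to genes, with 41.2% over 50 kb, and so were the Pax6-OFF sites, with 43.4%. The Pax6-ON sites reached 53.6%. Introns of coding genes held 41.6% of the members (40.8 to 42.4), a larger part than of the shared sites (27.7%), the Pax6-ON sites (34.2%) or the Pax6-OFF sites (30.8%), and the intervals of these percentages did not overlap. A further 2.30% of the members had their summits in exons and 56.1% between genes. The median GC content of the 201 bp around the summit was 49.3% in the members, 56.5% in the shared sites, 45.8% in the Pax6-ON sites and 50.7% in the Pax6-OFF sites.

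The chromosomes did not hold the members evenly. Chromosome 6 carried 3329 of them, which is 22.7% (22.0 to 23.4) on 6.05% of the length of chromosomes 1 to 19. Its share was 12.7% with an equal number of peaks per line and 10.1% among members above the median fold enrichment. This came to 22.3 members per Mb, against 4.89 per Mb on the other chromosomes together, where values ran from 1.54 per Mb on chromosome 14 to 7.54 per Mb on chromosome 1. The stretches of 10 Mb along chromosome 6 held 124 to 469 members each, with 469 in its second stretch, the densest of any chromosome. The members of chromosome 6 were weaker than the rest, with a median fold enrichment of 2.55 against 3.52 and a median pileup of 40 against 46 fragments. Among members with a fold enrichment of 5 or more, chromosome 6 had 1.49 per Mb and the other chromosomes 0.961 per Mb, so that the ratio fell from 4.56 to 1.55.

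**Figure D2:**
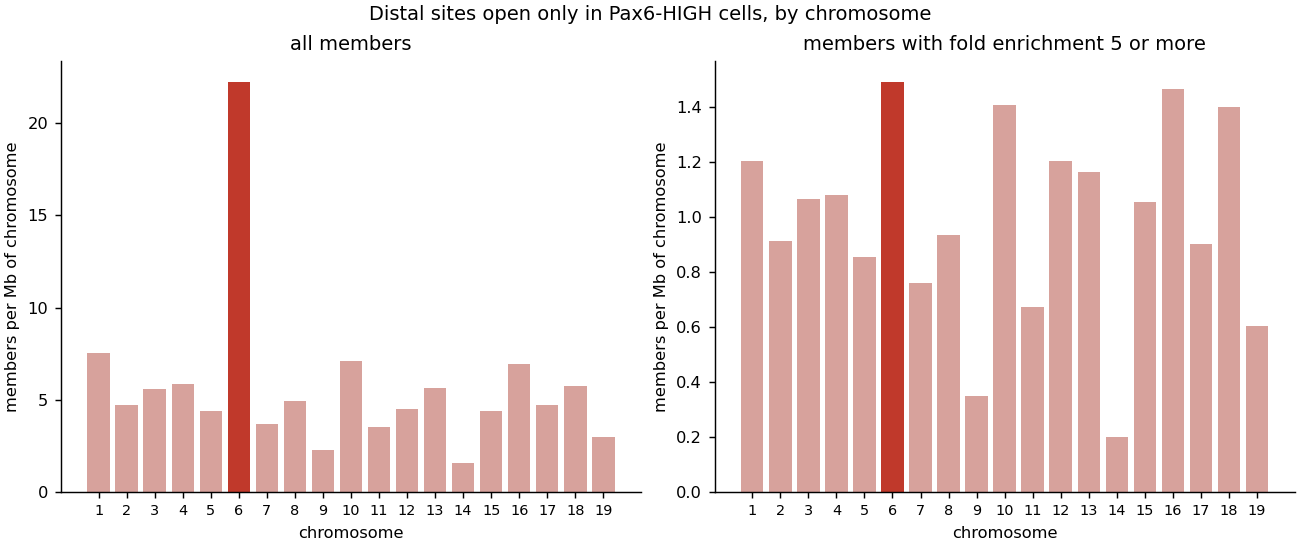
Bars give the number of members per Mb of each chromosome, for all members (left) and for those with a fold enrichment of 5 or more (right), with chromosome 6 in dark red. Chromosome 6 stands at 22.3 per Mb on the left, and at 1.49 per Mb on the right.

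Other values of the same call moved with this chromosome. At intervals called in all 3 lines, where the rule did not choose for Pax6-HIGH, the median Pax6-HIGH pileup was 208 fragments on chromosome 6 and 110 fragments on the other chromosomes. The same intervals had median pileups of 68 and 66 fragments in Pax6-ON cells and 69 and 73 fragments in Pax6-OFF cells. At these intervals chromosome 6 was thus high in the Pax6-HIGH call and not in the other calls. Distal sites shared with another line stood at 1.59 per Mb on chromosome 6 and 1.18 per Mb elsewhere. Chromosomes 1 and 16 had the next highest Pax6-HIGH pileups at these common intervals, 162.5 and 149 fragments, and held 7.54 and 6.92 members per Mb. The order was not the same throughout, since chromosomes 3, 18 and 12, with 135, 130 and 126 fragments, held 5.595, 5.76 and 4.47 members per Mb and chromosome 10, with 125 fragments, held 7.08. Chromosome 14 had the lowest of both, 74.5 fragments and 1.54 members per Mb. The part of DNA copy number in these counts was not tested. Values without chromosome 6 are given beside the densities per territory and the motif shares that it moves.

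Each member was assigned to the coding gene with the nearest start site. Of 21281 coding genes on these chromosomes, 5718 were nearest to at least 1 member, which is 26.9%. The distal sites found only in Pax6-ON and only in Pax6-OFF cells reached 8.37% and 8.46% of the genes. At least 5 members fell to 739 genes, 10 or more to 179 and 20 or more to 25. The 25 genes with the most members held 7.05% of all members, and 20 of these genes are on chromosome 6.

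Among the genes at the head of that ranking were Nxph1, a secreted ligand of neurexins, with 101 members, and Ndufa4, a mitochondrial respiratory chain protein, with 85. Others were Fam190a with 77 members, Cntnap2, a neurexin-related adhesion protein, with 62, Mdfic with 44 and the A-type potassium channel gene Kcnd2 with 41. These 6 genes are on chromosome 6, and their territories, the stretches nearer to their start sites than to those of any other coding gene, spanned 0.851 to 1.89 Mb. The transcription factor genes Foxp2, Sox5 and Foxp1 on the same chromosome had 36, 34 and 21 members. The strongest member nearest to Nxph1 had a fold enrichment of 8.53, but the median of its 101 members was 2.25, and 2 of them reached 5.

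With chromosome 6 left out, Robo1, a receptor for Slit guidance cues on chromosome 16, came first with 42 members, of which 9 had a fold enrichment of 5 or more. Next were Stim2, a calcium sensor of the endoplasmic reticulum, with 29, the receptor phosphatase gene Ptprd with 26, and Eya1 and Hace1 with 21 each. Robo2, the co-repressor gene Runx1t1 and Zfp608 had 18 each, and Celf4, a neuronal RNA-binding protein, also had 18. Nrxn3, a presynaptic neurexin, had 15 members, and 9 of them reached a fold enrichment of 5. The ranking without chromosome 6 thus mixed genes of many functions.

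Gene families were read from gene symbols, and were chosen after the ranking had been seen. Counts were set against the territories of the genes, and over all coding genes the members came to 5.94 per Mb, or 4.89 per Mb without chromosome 6. The 27 semaphorin and plexin genes, ligands and receptors in axon guidance, stood at 9.52 per Mb and at 9.23 without chromosome 6, with 14 members nearest to Sema6a. The 17 synaptotagmin genes, calcium sensors of vesicle fusion, had 11.6 per Mb, none of it from chromosome 6, led by Syt1 with 10 members. The 9 genes of neurexins, neuroligins and LRRTMs had 7.62 per Mb and 6.12 without chromosome 6. The 39 voltage-gated potassium channel genes, in contrast, had 7.86 per Mb, of which Kcnd2 made 41 of 84 members, and 4.00 per Mb without chromosome 6. The 1081 olfactory receptor genes, which lie in long clusters, had 1.31 members per Mb (0.842 without chromosome 6), and the 16 GABA-A receptor subunit genes had 1.64. Other families of the 20 also lay on both sides of the 4.89 per Mb without chromosome 6. Forkhead factors had 9.23, keratins 8.08 and phosphodiesterases 7.59. Ionotropic glutamate receptors had 2.23, classical cadherins 2.31 and voltage-gated calcium channel alpha subunits 3.84. High densities were thus not limited to genes of axon guidance and synapses, nor shared by all such families.

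The islet transcription factor genes carried many members. Of the 24 on these chromosomes, 17 were nearest to at least 1 member (70.8%, against 26.9% of all coding genes), with 54 members in all and a median of 1.5 a gene against 0 over all genes. Distal sites of Pax6-ON cells only were nearest to 6 of the 24, against 8.37% of all genes, and those of Pax6-OFF cells only to 4, against 8.46%. Per Mb of territory the Pax6-ON sites came to 2.27 against 1.16 for all genes, so their density at these genes was also above their own background. For the members the list had 10.2 per Mb of territory against 5.94 for all genes, and 10.3 against 4.89 without chromosome 6. Of members with a fold enrichment of 5 or more it had 2.46 per Mb against 0.993. With an equal number of peaks per line, which left 3158 members, the count was 12 of the 24 genes. The share of all coding genes was not computed at that setting, so the 26.9% cannot be set beside this count.

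**Figure D3:**
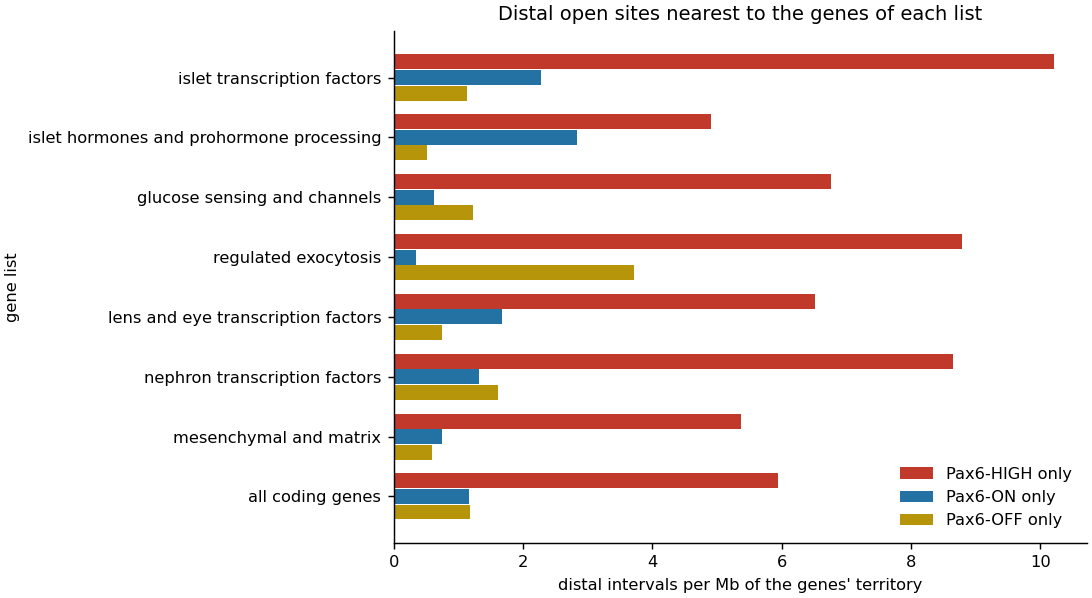
Bars give the number of distal intervals per Mb of territory nearest to the genes of each list, for members (Pax6-HIGH only, red), Pax6-ON only (blue) and Pax6-OFF only (yellow) sites. Islet transcription factors reach 10.2 members per Mb, against 5.94 over all coding genes at the bottom.

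Pax6, which the study is about, was nearest to 7 members, all upstream of its start sites. They lay 116130, 92367, 87536, 81877, 52264, 7696 and 5446 bp away. The 3 farthest had fold enrichments of 5.02, 6.10 and 4.30 and the 2 nearest 3.04 and 3.24, so that the strongest Pax6 member stood at a distance and not beside the promoter. Within 500 kb of the first Pax6 start site there were 18 union intervals, 10 of them members. Beyond those 7, a member nearest to Rcn1 had its summit at -145 kb, with a fold enrichment of 3.75, and one in an intron of 0610012H03Rik at -410 kb, with 2.27. The only member downstream within 500 kb was in an intron of Elp4, the gene that follows Pax6, with its summit 146 kb from the Pax6 start, a pileup of 72 fragments and a fold enrichment of 5.71. This Elp4 site lay within the probe that the study used to image the downstream regulatory region of Pax6. The study described a Pax6-ON peak in that region, absent in Pax6-HIGH cells, without coordinates. It also called peaks separately for this locus, so its description cannot be matched to the intervals used here. The window of 500 kb held 1 distal site shared with Pax6-ON cells and 1 interval of Pax6-ON cells only, upstream at -56.5 kb.

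Among the other islet factors, Foxa2 was also nearest to 7 members, the closest 22226 bp from its start, with fold enrichments up to 4.38. Isl1, a LIM homeodomain factor, had 6, from 4245 bp outward, and its strongest had 191 fragments at the summit and a fold enrichment of 6.47. St18, a zinc finger factor, had 6 and Insm1, an endocrine zinc finger factor, had 5, the closest 1220 bp away. Nkx6-1 had 4 members, 3 of them with a fold enrichment of 5 or more, and its highest value was 8.24 at 280396 bp. Nkx2-2 had 4 with a highest value of 5.25. Pdx1, Neurod1, Mafa, Mnx1 and Irx2 had 2 members each. The closest Pdx1 member lay 1591 bp from the start site. Foxa1, Rfx3, Glis3 and Myt1 had 1 each, and that of Rfx3 reached 6.29. No member was nearest to Pax4, Rfx6, Hnf4a, Mlxipl or Onecut1.

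**Figure D4:**
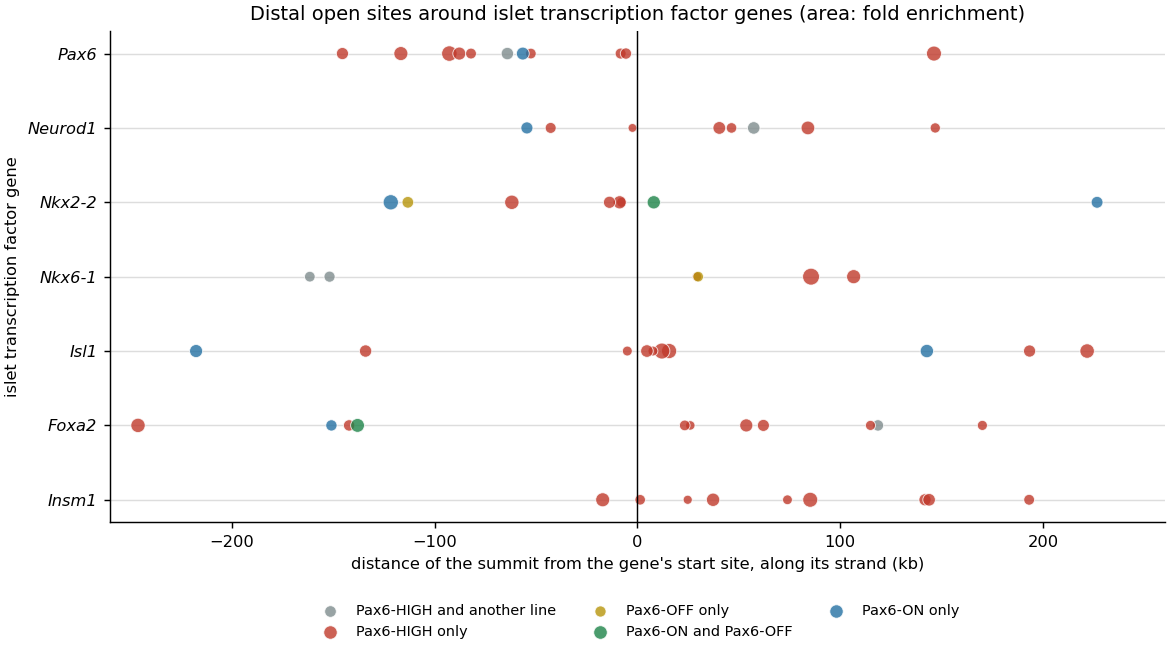
Each row is an islet transcription factor gene, and each point is a distal interval whose summit lies within 250 kb of the first start site, by its distance along the gene's strand in kb, colored by class, with the point's area proportional to fold enrichment. Members (red) stand mostly on the upstream side of Pax6 and on the downstream side of Nkx6-1, and points of the other classes lie among them, also where another gene is nearer.

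At the hormone genes themselves the picture was different. No member was nearest to Ins1, Ins2, Iapp, Ppy or Pyy, or to Pcsk1, a proinsulin convertase, and the promoters of these 6 genes had no interval in any line. Distal sites of other classes were nearest to some of them, such as 4 of Pax6-ON cells only at Ins1 and 1 shared with another line at Iapp. The glucagon gene Gcg had 3 members, up to a fold enrichment of 6.41, and a promoter interval in Pax6-HIGH cells only. Pcsk2, the other prohormone convertase gene, had 2 members, the closest 120843 bp away, and 1 of them reached 8.68. Pam, the peptide-amidating enzyme, had 4 members up to 7.12, and the granule protein gene Chga had 2, both over 5. Of the 18 genes of islet hormones and prohormone processing, 10 were nearest to a member (55.6%, against 26.9% of all genes), and the list had 4.90 members per Mb against 5.94, but 4.94 against 4.89 without chromosome 6. Sites of Pax6-ON cells only were nearest to 6 of these genes, at 2.84 per Mb against 1.16 for all genes.

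Genes of glucose sensing had 1 to 5 members each where they had any. A member was nearest to 13 of 18 (72.2%, against 26.9% of all genes), with 22 members in all. Per Mb the list had 6.76 against 5.94 for all genes, and 6.55 against 4.89 without chromosome 6. Slc30a8, the zinc transporter of insulin granules, had 5, the closest 2991 bp away. Kcnj11, the pore of the ATP-sensitive potassium channel, had 2 with a highest fold enrichment of 7.54, and Abcc8, its sulfonylurea receptor partner, had 1 with 4.69. Slc2a2, the glucose transporter GLUT2, had 2 members, both at least 142293 bp away, and G6pc2 had 1. Glp1r, Gipr, Trpm5 and Ffar1 had none. Of 18 genes of regulated exocytosis, 9 were nearest to 26 members (50.0%, against 26.9% of all genes). Per Mb this list had 8.79 against 5.94 for all genes, and 7.69 against 4.89 without chromosome 6. The genes with members included Cadps2 on chromosome 6 with 6, at fold enrichments up to 2.66, and Snap25, Syt7 and Syt13 with 4 each. Here the promoters stood out more than the distal sites, since 12 of the 18 had a promoter interval in Pax6-HIGH cells only (66.7%, against 10.7% of all coding genes), Rab3a, Rab27a, Ptprn and Unc13a among them without any member.

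The members were not limited to genes of the islet. Of 17 lens and eye transcription factor genes, 9 were nearest to a member (52.9%), with 6.51 per Mb, or 5.29 without chromosome 6, close to the 4.89 of all genes. Mitf, a pigment cell and eye factor on chromosome 6, had 9 members with fold enrichments up to 4.04. Foxc1, a forkhead factor of the anterior eye, had 8, of which 4 reached a fold enrichment of 5. Of 19 nephron transcription factor genes, 10 (52.6%) were nearest to 59 members, or 8.65 per Mb, against 10.2 for the islet factors. Eya1 gave 21 of these, up to a fold enrichment of 7.33, and Gata3, a zinc finger factor of the kidney duct and of other tissues, gave 11. Irx3, Tfap2b and Tfcp2l1 (Tcfap2b and Tcfcp2l1 in the annotation) had 5, 1 and 5. Of 20 mesenchymal and matrix genes, 9 (45.0%) were nearest to 36 members, or 5.37 per Mb and 4.03 without chromosome 6. Zeb2 had 8 and Col1a2, on chromosome 6, had 10. In each of the 7 lists, the share of genes nearest to a member was above the 26.9% of all genes. The lists of factors for eye and kidney and the mesenchymal list were no exception. A gene with a larger territory can be nearest to more members, and these shares were not corrected for territory. The 20 mesenchymal genes spanned 6.71 Mb together, and the median territory over all coding genes was 0.0454 Mb. Per Mb, the mesenchymal list was below all genes, with 5.37 against 5.94, and 4.03 against 4.89 without chromosome 6.

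Genes with members more often had an open promoter in the same cells than genes with none, though the share did not rise further above 9 members. A promoter counted as open when an interval lay within 1 kb of any start site of the gene. A Pax6-HIGH interval lay at the promoter of 42.6% of genes with no member (41.8 to 43.4), 55.6% of genes with 1 to 4 (54.2 to 56.9), 67.0% of genes with 5 to 9 (63.0 to 70.7) and 67.0% of those with 10 or more (59.9 to 73.5). For a promoter open in Pax6-HIGH cells only, the values were 9.27%, 13.7%, 22.9% and 18.4%. Promoters open in Pax6-ON cells rose along the same groups, from 18.7% to 45.8%, while those open in Pax6-OFF cells stood at 35.3%, 40.4%, 38.6% and 33.0%. The groups of genes were not matched for territory, number of start sites or chromosome, and the part of these in the shares was not tested. Promoter shares without chromosome 6 were not computed. The promoter intervals were not used by the rule, apart from the fact that intervals near start sites cannot be members.

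Some members stood in runs. With gaps of up to 10 kb, 1771 runs of at least 2 members held 4070 of them (27.7%), and 10609 stood alone. Of 101 runs with 4 or more, 64 were on chromosome 6. The longest had 20 members in 78286 bp, on chromosome 6 from 114444455 to 114522740 between Hrh1, a histamine receptor, and Atg7, an autophagy enzyme, with a median fold enrichment of 3.02 and a highest pileup of 121 fragments. The next were near Ndufa4 with 9 members, Thsd7a with 8 and a pair of runs near Nxph1 with 7 each, with median fold enrichments between 2.21 and 2.38. A run of 7 near Cxxc5 on chromosome 18 had a median of 3.29 and a highest value of 4.93. On chromosome 5, a run of 5 over 12457 bp near Stim2 had a median of 3.83 and a highest value of 7.88. A run of 7 at Sfi1 on chromosome 11 was of another kind. Its highest pileup was 398 fragments but its median fold enrichment was 1.49, so the local background there was high as well.

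The strongest members were single intronic or intergenic sites next to genes of many kinds. The Uggt2 member, in a gene for a glycoprotein folding sensor, had 140 fragments and a fold enrichment of 10.1. It was followed by sites nearest to the semaphorin receptor gene Plxna2 (9.47), Fam155a (9.40), which encodes a subunit of a sodium leak channel complex, and Nrxn3 (9.34). Members nearest to Ipo7, Farp1, Prkd1 and Gsdmc had values of 9.33, 9.20, 9.12 and 9.10, and those nearest to Vcan, Arl6, Dgkb and Prokr1 had 8.93, 8.92, 8.91 and 8.88. Only the last of these 12 is on chromosome 6. Their distances to a start site ran from 6636 bp to 901005 bp, and 6 of the 12 lay in introns.

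The sequence under the summits was not used by the rule. Each motif was searched in the 201 bp window on both strands, with N standing for any base, and its frequency was set beside windows of the same length centred 500 bp to either side. The forkhead motif TGTTTAC was found in 7.45% of the members (7.04 to 7.89) and in 3.07% of their flanks (2.88 to 3.27). It was in 1.77% of the shared distal sites, 3.28% of the Pax6-ON sites, 1.73% of the Pax6-OFF sites and 5.42% of all distal intervals. The members exceeded the Pax6-ON sites by 4.17 percentage points (95% Newcombe interval 3.34 to 4.91) and the Pax6-OFF sites by 5.73 (5.05 to 6.33). Forkhead matches were therefore more frequent at the summits of the members than in each of these classes, whose shares did not exceed those of their own flanks (2.14%, 3.07% and 2.59%) beyond the intervals. The classes differed in GC content, as given above, and its part in these shares was not tested.

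E-boxes and MAF sites were likewise most frequent in the members. The NEUROD-type E-box CAGATGG was in 10.6% of the members (10.1 to 11.1) against 4.48% of their flanks, and in 4.12%, 5.06% and 4.35% of the shared, Pax6-ON and Pax6-OFF sites, with 8.20% over all distal intervals. The flanks of those classes held it in 3.98%, 3.98% and 4.38%. The excess of the members over the Pax6-ON sites was 5.57 percentage points (4.57 to 6.47). The palindromic E-box CAGCTG was in 20.8% of the members against 9.15% of their flanks, and in 15.03%, 13.1% and 14.9% of those classes (18.3% over all). The flanks of those classes held it in 9.41%, 7.23% and 9.06%, so its excess at summits was not limited to the members. The MAF site TGCTGAC was in 10.7% (10.2 to 11.2) against 2.90% of their flanks, and in 5.02%, 5.83% and 3.90% of those classes (8.47% over all). The flanks of those classes held the MAF site in 2.21%, 2.69% and 3.11%, so shared and Pax6-ON summits also exceeded their flanks. The MAF sequence can share letters with an AP-1 site, and did so in 8.22% of the members that held it, against 17.96% of such Pax6-ON sites. The match to the RFX X-box was rare, with 0.53% of the members and 0.08% of their flanks, and 0.20%, 0.10% and 0.21% of the other classes.

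**Figure D5:**
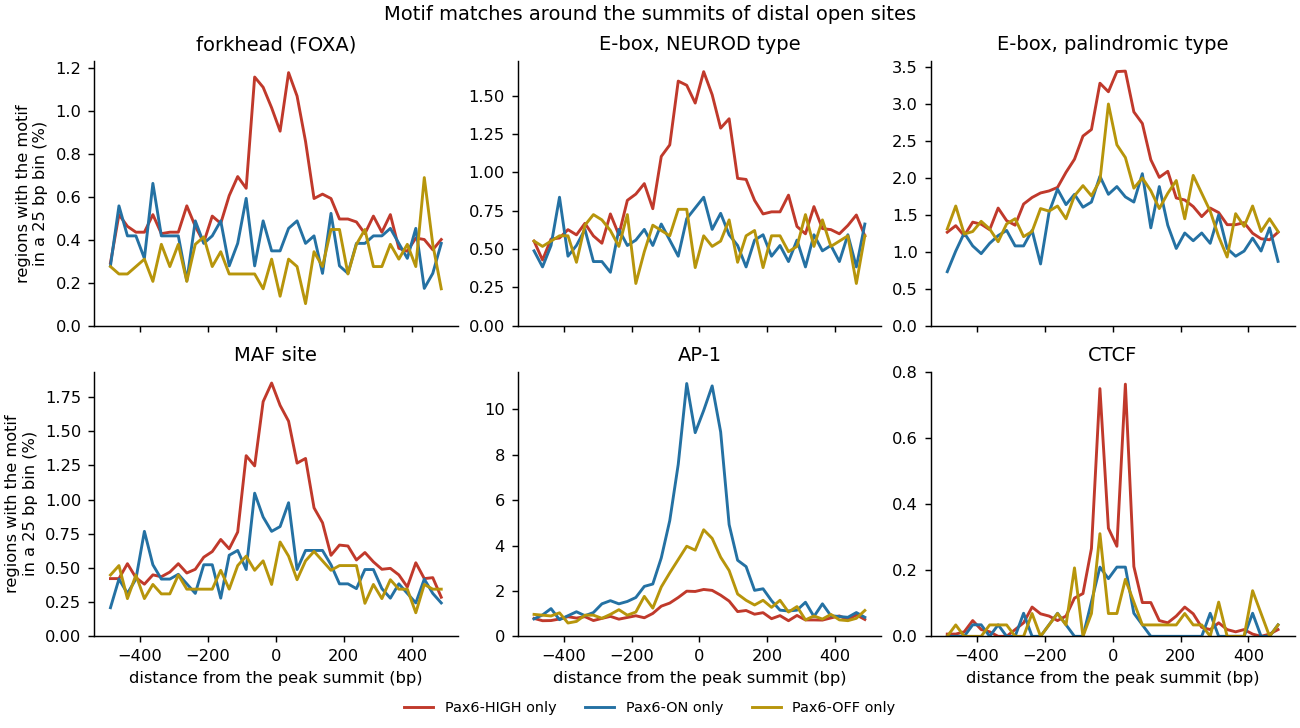
Each panel plots the percent of regions with a match to a motif in 25 bp bins by distance from the summit in bp, for members (Pax6-HIGH only, red), Pax6-ON only (blue) and Pax6-OFF only (yellow) sites. Forkhead, NEUROD-type E-box and MAF matches peak at the summits of the members, AP-1 matches peak highest in Pax6-ON sites, and the vertical axes differ between panels.

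Other motifs of islet factors were less clear. The homeodomain core TAATTA was in 4.93% of the members (4.59 to 5.29), below the 6.41% of their flanks. The shares of the shared, Pax6-ON and Pax6-OFF sites were lower, at 1.51%, 3.63% and 3.21%, and that of all distal intervals was 4.10%. The NKX2-2 motif TNAAGTGG was in 3.02% of the members (2.75 to 3.31), against 2.59% of their flanks and 2.67% of all distal intervals. The long PAX6 paired-domain consensus was found in 9 members, or 0.061% (0.032 to 0.116), against 0.010% of their flanks, and in 0 sites of the other classes, with intervals for the differences that include 0. AP-1 sites (TGANTCA) separated the lines most widely. They were in 13.0% of the members (12.5 to 13.6), above the 5.92% of their flanks, so AP-1 matches were also more frequent at member summits. This share was close to the 13.6% of the shared sites. It was 52.8% of the Pax6-ON sites, 24.9% of the Pax6-OFF sites and 20.4% of all distal intervals. The difference of the members from the Pax6-ON sites was -39.8 percentage points (-41.7 to -37.9), and from the shared sites -0.60 (-1.98 to 0.71). TEAD matches (GGAATGT) were in 2.76% of the members, close to the 2.82% of their flanks. Their share was 1.94% in the shared sites, 8.55% in the Pax6-ON sites, 5.42% in the Pax6-OFF sites and 3.86% over all distal intervals. ETS matches (CCGGAAG) were in 1.73% of the members and 0.909% of their flanks, well below the 8.07% of the shared sites. They were in 1.36% of the Pax6-ON sites, 2.07% of the Pax6-OFF sites and 2.48% of all distal intervals. The CTCF consensus was in 2.75% of the members (2.49 to 3.02) against 0.10% of their flanks. Its share was 1.61% in the shared sites, 0.98% in the Pax6-ON sites, 0.83% in the Pax6-OFF sites and 2.13% over all distal intervals.

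Motif content rose with the strength of the members. From the 25% of members with the lowest fold enrichment to the 25% with the highest, the forkhead motif went from 3.46% to 6.75%, 8.73% and 10.9%, the NEUROD-type E-box from 6.98% to 9.38%, 12.1% and 14.1%, and the MAF site from 6.39% to 8.86%, 12.6% and 15.04%. In the weakest group, the forkhead share was close to its flank share of 3.33%. The CTCF consensus took another course, with 1.96%, 4.35%, 3.42% and 1.29%, so that the strongest members held it least often, and AP-1 sites rose from 8.02% to 17.3%, so the rise was not limited to motifs of islet factors. At least 1 of 6 islet motifs (forkhead, NEUROD-type E-box, MAF, RFX, NKX2-2, homeodomain) was in 32.3% of the members. The share was 13.8% of the shared, 18.8% of the Pax6-ON and 15.01% of the Pax6-OFF sites, and 25.8% of all distal intervals. A flank share was not computed for this set, which includes the homeodomain core, less frequent at member summits than in their flanks. With all classes limited to a fold enrichment of 5 or more, the forkhead share was 10.8% of 2455 members (9.63 to 12.1) against 3.26% of 644 Pax6-ON sites (2.14 to 4.93) and 3.08% of 195 Pax6-OFF sites (1.42 to 6.55), and the NEUROD-type share 14.8% against 4.97% and 6.15%.

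The members of chromosome 6 held fewer of these motifs. The forkhead share was 4.57% there and 8.30% on the other chromosomes, and the NEUROD-type share 7.42% and 11.6%, a difference of 4.15 percentage points (3.05 to 5.18). Among members with a fold enrichment of 5 or more, 223 on chromosome 6 and 2232 elsewhere, the forkhead shares were 11.2% (7.71 to 16.0) and 10.8% (9.53 to 12.1) and the NEUROD-type shares 16.6% (12.3 to 22.0) and 14.7% (13.2 to 16.2). The strong members of chromosome 6 thus had shares whose intervals overlapped those of the strong members elsewhere. By distance, the NEUROD-type share was 9.98% for members over 50 kb from a start site and 11.3% for the rest, with overlapping intervals, while the CTCF share was 2.01% (1.71 to 2.36) and 3.47% (3.07 to 3.91), lower far from genes.

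The limit of 1 kb that defines a distal site cut through a continuum. The members just inside it lay 1005 to 1013 bp from the start sites of Id3, Gm16484, Bcar1, Zfpm2 and Csf1r, with fold enrichments of 3.16, 4.19, 3.11, 2.85 and 2.58. Intervals just outside, at 990 to 997 bp from Celf4, Mkx, Dtx2 and Neurog2, had 3.05, 2.23, 3.99 and 3.52. The members with the weakest q-values were all 5 on chromosome 6, with pileups of 25 to 28 fragments.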

How the data were processed

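ATAC-seq was run on 3 cell lines with 2 libraries each. As the study's methods and the submitters' processing notes describe, reads were trimmed with Trim Galore 0.4.1, aligned to mm9 with Bowtie2 2.2.6, filtered with SAMtools 1.6 and bedtools, and peaks were called with MACS2 2.1.1 on pooled replicates. The tables deposited by the authors give, for each peak, the pileup as a signal (fragments over the summit), the fold enrichment as a ratio to local background, and −log10 p-values and q-values, with q of at most 0.05. Pooling leaves no replicate error, so no test across replicates was made. Cell lines were not authenticated, per the study's methods.

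Peaks were merged, assigned to the nearest start site of a protein-coding transcript (GENCODE M1, mm9) and described by class with Python 3.11.15, pandas 2.3.3, NumPy 2.4.6, SciPy 1.17.1, pysam 0.24.0 and matplotlib 3.10.9. Motifs were matched exactly within 100 bp of each summit, and scripts were tested on simulated data. Shares have 95% Wilson intervals, differences Newcombe intervals, both for counting error only. The members, gene lists and motifs were chosen with earlier results of these data known. Named genes were the 25 with the most members (also without chromosome 6), those of 7 lists, the 12 strongest members, the Pax6 surroundings and the longest runs, and 20 families were added after the values were seen. Alternatives changed the q-value limit, the number of peaks, the joining of peaks, the start sites and distance, and the motif window. Older symbols were matched through a RefSeq gene table, and Sox1, which had no match, and genes on chromosome X were not analysed here in the lists. Results for a few listed genes are not reported here.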

Additional observations from a re-analysis of the deposited data

Results flagged for a closer look

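The rule covered chromosomes 1 to 19, so peaks elsewhere were outside it. On chromosome X, 202 distal intervals held Pax6-HIGH peaks only, or 1.21 per Mb with a median fold enrichment of 3.32. On the same chromosome 31 distal intervals held Pax6-ON peaks only and 128 held Pax6-OFF peaks only. A further 72 Pax6-HIGH-only intervals lay on sequences not placed on chromosomes 1 to 19 or X. The labels name no control sample to set beside these counts.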

How the results depend on the processing

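No paired analysis was possible because both replicates of each line were pooled into 1 peak call, and for the same reason no replicate could be left out. With the same number of peaks in each line there were 3158 members, of which 12.7% lay on chromosome 6 and 47.2% over 50 kb from a coding start site, and the forkhead and NEUROD-type shares were 10.9% and 14.4%. With a q-value below 0.001 in all lines, chromosome 6 held 19.9%, 48.2% lay over 50 kb away, and the forkhead share was 7.96%. With that limit in Pax6-HIGH only, these values were 19.98%, 48.2% and 8.01%, and the NEUROD-type share was 11.2%. A distance limit of 5 kb in place of 1 kb put 53.8% over 50 kb away. A window of 50 bp on each side of the summit, shorter by construction, gave shares of 3.90% and 5.72%. Chosen after seeing the data, leaving out chromosome 6 gave 47.5% over 50 kb, 8.30% with the forkhead motif and 11.6% with the NEUROD-type E-box. Members above the median fold enrichment, also chosen after seeing the data, gave 45.9%, 9.82% and 13.1%, with 10.1% on chromosome 6. The number of islet transcription factor genes nearest to a member was 12 to 17 over all settings. The share of all coding genes was not computed at the changed settings, so these counts have no background beside them. The other settings moved none of these values beyond their counting intervals. Depth limits the weakest sites most, since a pileup of 25 fragments was the lowest called in Pax6-HIGH cells, and a site absent from a call may lie below its limit.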
